A study of Homo sapiens with 27 samples.

Results

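The genes described here copy the genome or make the building blocks for the copy. The set holds 35 genes of DNA replication and nucleotide supply, chosen by name, and a probe belonged to it where its gene symbol, an older symbol or its transcript accession named a member. On the platform shared by most arrays 43 probes matched, and on the other platform 44 did. After the filter on dim probes all 35 members were tested with 8 compounds, among 17269 genes, and 34 members with the remaining compound, among 14381 genes, where CCNE2 did not pass the filter. One member, PCNA, is also a target of the tumour suppressor p53 and is set against the other 34.

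The samples were RNA of HepG2 cells, a human liver cancer line, after 48 h with 1 of 9 polycyclic aromatic hydrocarbons, compounds of fused aromatic rings. NP stands for naphthalene, PH for phenanthrene, BA for benzo[a]anthracene, CHR for chrysene, 3MC for 3-methylcholanthrene, BaP for benzo[a]pyrene, IND for indeno[1,2,3-c,d]pyrene, BF for benzo[k]fluoranthene and DBA for dibenzo[a,h]anthracene. Each compound had 3 two-colour arrays, 27 in all, where exposed cells gave the red channel (Cy5) and control cells that received only DMSO, the solvent, gave the green channel (Cy3). The dyes were exchanged on no array, so a gene's difference between the dyes and its difference between compound and DMSO cannot be told apart. The labels give neither doses nor whether arrays of a compound came from separate cultures or shared DMSO RNA, so the spread behind each p-value is that of arrays and may be only technical. All values below are log2 ratios of compound over DMSO unless stated otherwise, and the order of compounds carries no dose order.

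Replication begins with licensing, in which the origin recognition complex (ORC), CDC6 and CDT1 load the helicase ring of MCM2 to MCM7 onto DNA, and geminin (GMNN) holds CDT1 back. Kinases and helper proteins then fire the loaded origins, polymerases extend the strands around the PCNA sliding clamp, ribonucleotide reductase and thymidylate synthase supply the deoxynucleotides, and CAF-1 places histones on the new DNA. Many of these genes are transcribed by E2F factors as cells enter S phase, and p53 acts against that entry through CDKN1A (p21), the inhibitor of cyclin-dependent kinases. In RNA from whole cultures, fewer cells in S phase and less of a transcript in each cell cannot be told apart.

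Upstream sequences are shown for PCNA, whose change ran opposite to most of the set with CHR and BaP, and for 4 members of other patterns or roles: MCM6, GINS2 and POLA1, which fell with 8 of 9 compounds, and TYMS, which rose with CHR. They are RefSeq sequences of build GRCh38.p14, written 5′ to 3′ along the gene and ending at the base before an annotated transcript start. Windows were found for 32 of 35 members; MCM4, MCM5 and CCNE2 are named only. Capitals mark letters of an E2F motif in MCM6, GINS2, POLA1 and TYMS, and the decamer unit of the p53 response element in PCNA. RRM1, RRM2 and TK1, which also fell with 8 compounds, had no such E2F motif in the windows searched and are not shown.
PCNA: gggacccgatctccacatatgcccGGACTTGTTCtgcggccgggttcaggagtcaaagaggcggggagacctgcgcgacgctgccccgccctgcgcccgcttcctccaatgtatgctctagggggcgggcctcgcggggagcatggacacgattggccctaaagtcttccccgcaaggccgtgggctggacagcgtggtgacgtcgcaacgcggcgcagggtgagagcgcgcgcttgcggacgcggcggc
MCM6: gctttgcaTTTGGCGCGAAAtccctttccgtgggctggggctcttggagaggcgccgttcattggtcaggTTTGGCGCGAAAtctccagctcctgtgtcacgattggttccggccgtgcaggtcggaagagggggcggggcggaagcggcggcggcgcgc
GINS2: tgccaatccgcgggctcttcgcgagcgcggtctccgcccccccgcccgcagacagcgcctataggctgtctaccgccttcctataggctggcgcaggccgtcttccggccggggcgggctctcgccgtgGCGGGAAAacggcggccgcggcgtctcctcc
POLA1: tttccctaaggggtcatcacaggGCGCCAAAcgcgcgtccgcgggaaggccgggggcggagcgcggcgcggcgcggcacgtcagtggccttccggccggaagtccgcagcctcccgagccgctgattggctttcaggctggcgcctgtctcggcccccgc
TYMS: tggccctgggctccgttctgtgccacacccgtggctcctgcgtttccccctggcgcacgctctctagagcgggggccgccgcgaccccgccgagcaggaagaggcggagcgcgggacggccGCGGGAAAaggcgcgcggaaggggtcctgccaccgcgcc
The PCNA stretch is chr20:5119959-5120208 on the minus strand and lies inside the annotated gene (5114953 to 5126622), before a downstream start, with the decamer 226 to 217 bases before that start. The MCM6 stretch is chr2:135876444-135876603 on the minus strand, where TTTGGCGC and, on the other strand, TTTCGCGC overlap at 152 to 141 and again at 90 to 79 bases before the start. GINS2 is chr16:85688955-85689114 on the minus strand, POLA1 chrX:24693758-24693917 and TYMS chr18:657493-657652, both on the plus strand.

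Over 250 bases before the start and on both strands, at least 1 of the E2F motifs TTTCGCGC, TTTGGCGC, TTTCCCGC and TTTGCCGC was found in 11 of 32 members (34.4%), against 3.4% of 27308 genes. TTTCCCGC was found most often, in 8 of the 32, one of them the upstream start of PCNA, 59 to 52 bases before it. A CCAAT box stood before 19 of 32 members (59.4%), against 37% of genes, and TTTGAA before 1 member (3.12%), against 16.1% of genes. The p53 decamer stood before 5 of 32 members (15.6%), which were PCNA, MCM6, RRM1, CDC7 and RFC3, against 6.8% of genes and 6 of 24 genes of the list of p53 targets used below. These are matches of letters in a window, not sites of binding.

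A gene was counted as fallen or risen where limma's Benjamini-Hochberg adjusted p over all genes was under 0.05 and the mean changed at least 1.5-fold. On the platform of its own, IND had 30 of 34 members fallen and none risen, while 13.2% of all genes fell and 10.5% rose. With BaP 28 of 35 fell and 1 rose, against 10% and 15.1% of all genes, and with BF 27 fell and none rose, against 20.4% and 16.0%. With PH 18 fell and none rose (7.89% and 10.6% of all genes), with BA 17 fell and none rose (3.10% and 2.04%), and with CHR 16 fell and 3 rose (12.3% and 11.7%). The BA calls rest on the spread shared with the other compounds: fitted on its own 3 arrays, BA had 0 members fallen, with 26 lower at limma's unadjusted p under 0.05. Fewer fell with 3MC, where 15 fell and none rose (7.46% and 3.68%), and with DBA, where 13 fell and 1 rose (7.25% and 3.08%). NP was the compound with the fewest, 7 fallen and 2 risen, against 12.6% and 6.72% of all genes. Where none rose at that threshold, the members higher at limma's unadjusted p under 0.05 numbered 2 with PH, 2 with BA, 1 with 3MC, and 0 with IND and with BF.

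The median of the members was -1.15 with BaP, -1.11 with IND, -1.04 with BF, -0.64 with PH, -0.56 with BA, -0.55 with CHR, -0.50 with 3MC, -0.41 with DBA and -0.06 with NP. The median of all genes lay between -0.01 and 0.04 with each compound, which loess within arrays sets near 0 by construction. The median with DBA, whose arrays were dim, moved with the processing. It was -0.64 with plain background subtraction, -0.86 with the authors' values (27 members) and -0.27 with median centring in place of loess. The place of DBA among the compounds, by median or by count, thus depends on the processing. No member fell with all 9 compounds. MCM6, GINS2, POLA1, RRM1, RRM2 and TK1 each fell with 8, the exception being CHR for RRM1 and NP for the other 5. Some of these calls were lost under other settings besides the BA fit: with median centring RRM1 averaged -0.45 with BA and -0.29 with BF, and TK1 -0.34 with BA and -0.39 with CHR, and with the authors' values RRM1 averaged -0.56 with NP and -0.58 with BA. ORC1 fell only with BaP, where it averaged -0.96, and RFC2 only with BF, where it averaged -0.71.

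**Figure D1:**
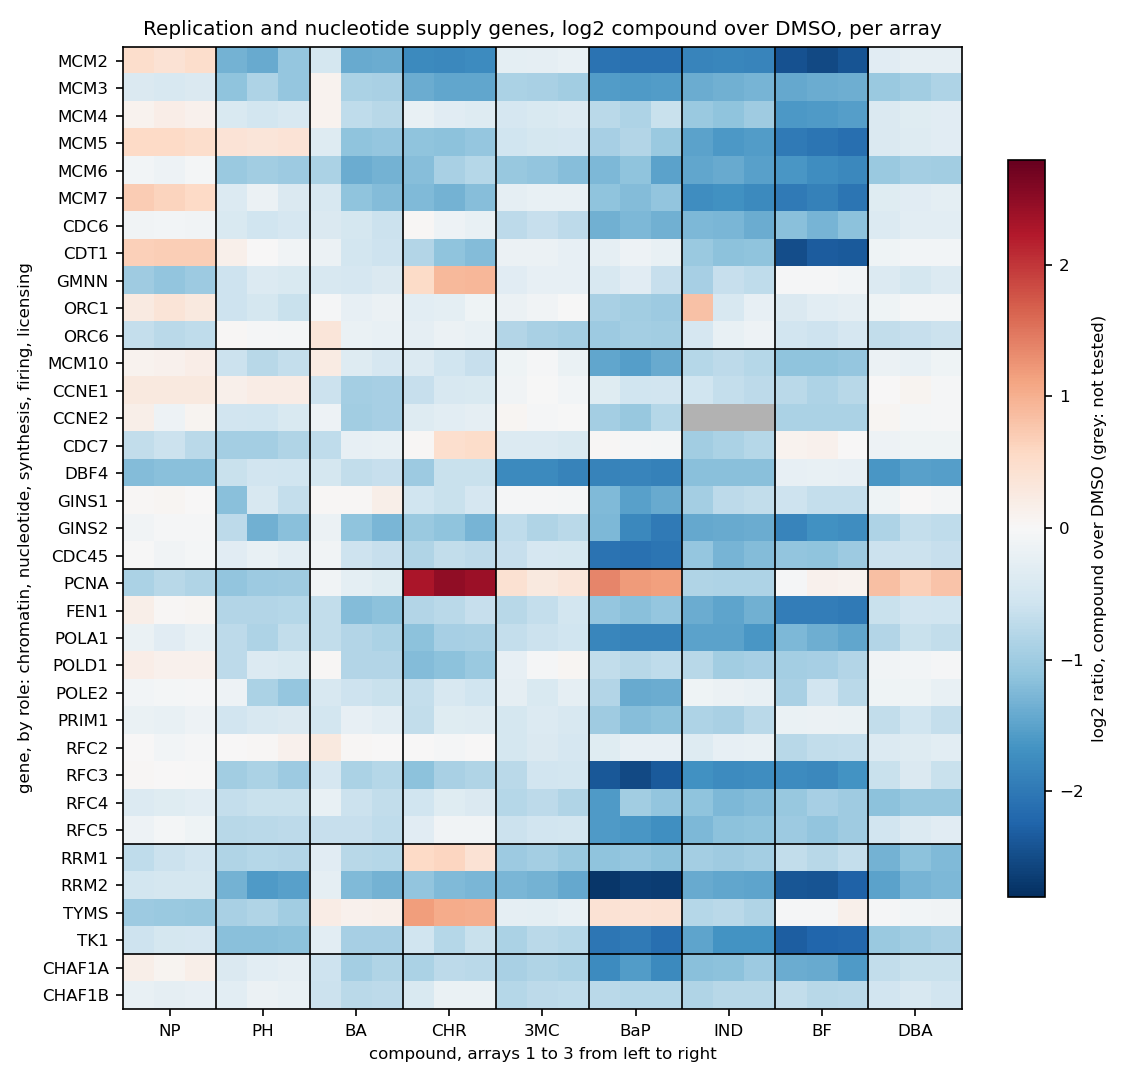
Log2 ratio of compound over DMSO for each member (rows, grouped by role from licensing at the top to chromatin at the bottom) on each of the 27 arrays (columns, 3 per compound), with blue for lower and red for higher with the compound and grey for not tested. The columns of BaP, IND and BF are blue in most rows, and the PCNA row is red with CHR, BaP and DBA.

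**Figure D2:**
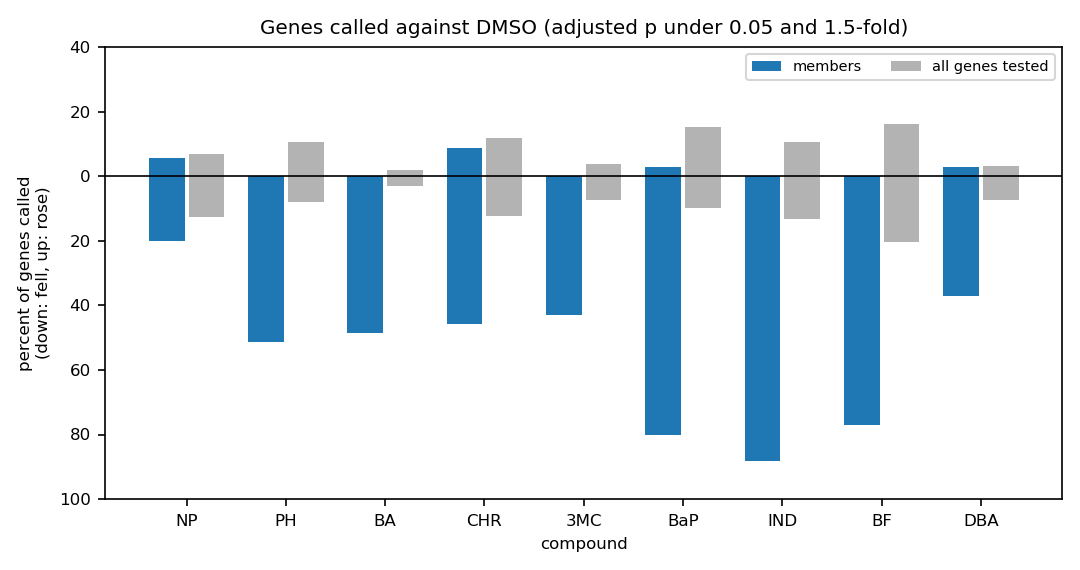
Percent of the members (blue bars) and of all genes tested (grey bars) that fell (down) or rose (up) with each compound at an adjusted p under 0.05 and 1.5-fold. The member bars reach 88.2% fallen with IND, 80% with BaP and 77.1% with BF, and 20% with NP.

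Some arrays bear on these counts. BA array 1 correlated with BA arrays 2 and 3 at 0.18 and 0.13 over all genes, and on it CYP1A1, the aryl hydrocarbon receptor target used as a check of exposure, stood at 0.58, against 6.25 and 6.23 on the other two. Without it 23 members fell with BA in place of 17, adding MCM3, MCM4, CDC45, POLD1, POLE2 and RFC4, and the median of the members was -0.74. CYP1A1 rose with 8 compounds, with means from 2.63 (PH) upwards and Cy5 saturated on all arrays of CHR, IND and BF, where it was at least 55.9-fold, 71.4-fold and 75.0-fold higher, and averaged 0.47 with NP (adjusted p = 0.537). The DBA, 3MC and NP arrays had their own scanner layout and lower signals, with a median Cy5 of 70 to 164 per array, against 341 to 1535 on the others. IND was run on its own platform and fitted apart, so it enters no comparison between compounds.

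The licensing genes hold 11 members, and their calls were 48 falls (48.5%) and 3 rises among 99 pairs of member and compound. For this and the next role groups, the shares of all genes by compound were 3.10% to 20.4% fallen and 2.04% to 16.0% risen. All 6 helicase subunits, MCM2 to MCM7, fell with BaP, IND and BF, 5 fell with CHR (MCM4 averaged -0.29), 4 with BA, 3 with PH and 2 each with 3MC and DBA. With NP none fell and MCM7 rose. MCM2 had the lowest or next lowest mean of the whole set with 5 compounds.
Its 3 arrays read -2.43, -2.52 and -2.42 with BF, a mean of -2.46 (SD 0.06, adjusted p = 6.54e-15). With IND they read -1.84, -1.82 and -1.85 (mean -1.84, adjusted p = 1.28e-07), and with CHR -1.79, -1.81 and -1.77 (mean -1.79, adjusted p = 3.42e-12). With BaP, where other members lay lower, MCM2 still averaged -2.09 (SD 0.01), and all 12 of these arrays lay below -1.7. With PH the arrays read -1.32, -1.42 and -1.08 (mean -1.28, adjusted p = 9.4e-10). With BA they read -0.50, -1.42 and -1.40, the first being the array that stood apart, and the mean was -1.11 with it and -1.41 without it. With NP, MCM2 lay above 0 on each array, at 0.49, 0.40 and 0.49, under the 1.5-fold minimum. Before scaling between the dyes, the MCM2 signals with BF were 2482, 2912 and 2983 in exposed cells, against 12099, 14913 and 13849 in DMSO. With NP these signals were 834, 779 and 845 in exposed cells, against 1132, 1141 and 1241 in DMSO. The sign of MCM2 with NP thus rests on the scaling.

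MCM6, another subunit of the ring, read -0.90, -1.40 and -1.33 with BA, the lowest mean there (-1.21, adjusted p = 1.51e-09, or 0.136 with BA fitted on its own, and -1.36 without array 1). MCM3 was next to MCM2 with CHR, at -1.38, -1.45 and -1.46 (mean -1.43, adjusted p = 3.4e-10), and fell with 7 compounds. MCM7 was next to MCM2 with IND, at -1.75, -1.70 and -1.79 (mean -1.75, adjusted p = 1.65e-07), and also averaged -1.97 with BF. It went the other way with NP, at 0.70, 0.63 and 0.56 (mean 0.63, adjusted p = 2.35e-06). Median centring in place of loess put MCM7 with NP at 0.42, under the minimum. Before scaling between the dyes, its NP signals were 2302, 2374 and 2091 in exposed cells, against 2594, 2831 and 2830 in DMSO. The sign of MCM7 with NP thus rests on the scaling. MCM4 fell only with BaP, IND and BF, and MCM5 with those and with BA and CHR.

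CDT1, the loading factor, read -2.48, -2.33 and -2.34 with BF (mean -2.38, adjusted p = 1.15e-17), where a dimmer probe of the gene gave -0.98. It averaged -1.10 with IND and -1.05 with CHR. With BaP its 3 arrays lay between -0.24 and -0.15, while the dimmer probe gave -1.10, and the mean of both probes passed the test, at -0.65. With NP it read 0.67, 0.69 and 0.70 (mean 0.68, adjusted p = 1.86e-08), falling under the minimum at 0.55 with median centring and at 0.56 as the mean of its probes. Its NP signals before scaling were 166, 167 and 167 in exposed cells, against 187, 187 and 196 in DMSO, so this sign too rests on the scaling. GMNN, the inhibitor of CDT1, read -0.997, -1.10 and -1.02 with NP (mean -1.04, adjusted p = 6.78e-12), one of the lowest values there. With CHR it read 0.54, 0.91 and 0.93 (mean 0.79, adjusted p = 4.75e-10), all above 0, and with IND -0.94, -0.64 and -0.72 (mean -0.77, adjusted p = 3.15e-05). CDT1 and GMNN thus moved in opposite directions with NP and with CHR. CDC6, which helps to load the ring, fell with 3MC, BaP, IND and BF, lowest at -1.32 with BaP. Among subunits of ORC, ORC6 fell with NP, 3MC, BaP and DBA, lowest at -0.98 with BaP. Its call with NP was lost as the mean of its probes (-0.50) and with the authors' values (-0.56), and that with DBA with median centring (-0.19) and with the authors' values (-0.43). ORC1 on the IND arrays read 0.83, -0.44 and -0.22, with no agreement in sign.

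Origin firing is covered by 8 members, of which none rose with any compound, and 37 of 71 pairs fell. All 7 tested with IND fell, 6 of 8 with BaP and with BF, 4 with PH and with BA, 3 with CHR and with DBA, and 2 with 3MC and with NP. DBF4, the activating subunit of the CDC7 kinase, had the lowest mean of the set with the 3 compounds of dim arrays.
Its arrays read -1.77, -1.78 and -1.86 with 3MC (mean -1.81, adjusted p = 7.24e-16). With DBA they read -1.64, -1.52 and -1.54 (mean -1.57, adjusted p = 1.14e-14), and with NP -1.21, -1.18 and -1.18 (mean -1.19, adjusted p = 1.35e-13). DBF4 was as low with BaP, at -1.87, and was -0.23 with BF, where most of the set fell. A second probe of DBF4 lay at or near background: exposed cells stood above it on 0 BaP arrays, 1 DBA array, 1 3MC array and 2 NP arrays, and DMSO on 0 DBA arrays. The mean of both probes no longer passed with NP (-0.58), BA (-0.37) and CHR (-0.44). CDC7 itself fell with NP, PH and IND, at -0.68, -0.92 and -0.89, and averaged -0.02 with BaP. On the IND arrays it stood above background on 2 of 3 for exposed cells and on 1 of 3 for DMSO.

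GINS2, part of the active helicase, fell with 8 compounds, lowest at -1.76 with BF and -1.68 with BaP. GINS1 fell with PH, BaP and IND, and with BF its spot passed the test although DMSO did not stand above background on any BF array, so no size is given there. CDC45, the partner of GINS, fell with CHR, BaP, IND, BF and DBA, lowest at -2.07 with BaP. MCM10 fell with PH, BaP, IND and BF, lowest at -1.46 with BaP. Its other probe, of nearly the same mean intensity, gave -0.95 with NP and -0.98 with 3MC, where the one used gave 0.13 and -0.11. The cyclins of the entry into S phase moved less: CCNE1 fell with BA, IND and BF, lowest at -0.83 with BA, and CCNE2 with BA, BaP and BF, lowest at -0.94 with BaP. CCNE2 stood above background in neither channel on any DBA array, GINS1 likewise, and CDC7 in neither on any CHR array, so their ratios there carry no level.

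The 10 members of DNA synthesis made 47 falls and 3 rises among 90 pairs, and all 3 rises were PCNA. Without PCNA the other 9 held 44 falls. RFC3, a subunit of the clamp loader that opens PCNA, had the next lowest mean with BaP, at -2.38, -2.53 and -2.35 (mean -2.42, SD 0.10, adjusted p = 2.15e-17). A dimmer probe gave -1.22 there, and with CHR the 2 probes of RFC3 gave -0.96 and 0.16.
The other subunits differed: RFC4 fell with 6 compounds, lowest at -1.22 with BaP, RFC5 with 5, lowest at -1.65 with BaP, and RFC2 with BF alone. On the probes used, RFC2 was the highest of the 4 loader subunits with each of 8 compounds, NP being the exception. By its dimmer probe, RFC3 lay above RFC2 with CHR, 3MC, BF and DBA, although with DBA that probe stood above background on 0 arrays for exposed cells. POLA1, the catalytic subunit of polymerase alpha, fell with 8 compounds, lowest at -1.86 with BaP (SD 0.04), and its partner PRIM1, the primase, with BaP, IND and DBA, lowest at -1.11 with BaP. POLD1 of polymerase delta fell with CHR, BaP, IND and BF, lowest at -1.14 with CHR, and POLE2 of polymerase epsilon with PH, BaP and BF. A second POLD1 probe of nearly the same mean intensity gave -0.38 with BaP, under 1.5-fold, where the one used gave -0.72. With BF, POLE2 did not stand above background in both channels on 2 or more arrays. POLE2 read -0.14, -0.89 and -1.08 with PH, and its call there was lost without array 3. FEN1, the nuclease that trims Okazaki fragments, fell with 7 compounds, lowest at -1.95 with BF. A second FEN1 probe of nearly the same mean intensity gave -0.55 with PH and -0.28 with 3MC, under 1.5-fold. With BA, CHR, BaP, IND and BF it passed 1.5-fold. With IND the probe used stood above background on 1 array for exposed cells, while the second probe, above it on 3, gave -1.44.

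The 4 members of nucleotide supply had 27 falls and 1 rise among 36 pairs, against 171 falls among 314 pairs over the whole set, and RRM1, RRM2 and TK1 made 24 of the 27. Of 21 genes of nucleotide supply outside the set, 1 to 9 fell with a compound. These were 4.76% with BA to 42.9% with BF, against 3.10% and 20.4% of all genes. RRM2, the small subunit of ribonucleotide reductase that limits its activity in S phase, was the lowest of all members with BaP and PH.
On the BaP arrays it read -2.72, -2.63 and -2.65 (mean -2.67, SD 0.05, adjusted p = 2.86e-14), with spot signals of 1691, 1549 and 1914 for the exposed cells, against 11109, 9349 and 11652 for DMSO. With PH it read -1.33, -1.59 and -1.52 (mean -1.48, adjusted p = 7.39e-10). With 3MC it read -1.29, -1.32 and -1.42 (mean -1.34, adjusted p = 5.49e-09), and with DBA -1.50, -1.29 and -1.25 (mean -1.35, adjusted p = 5.79e-09), next to DBF4 with both. A second probe of RRM2 lay nearer to 0 with every compound, at -1.80 with BaP, -0.97 with PH, -0.53 with DBA and -0.44 with 3MC.
RRM1, the large subunit, was lowest at -1.24 with DBA, and fell less than the brighter RRM2 probe in 7 of the 8 compounds with which it fell. Beside the second RRM2 probe, RRM1 fell less only with BaP, PH and BF and lay lower with NP, BA, 3MC, IND and DBA. The order of the subunits thus depends on the probe. With CHR the subunits parted: RRM1 averaged 0.52, under the 1.5-fold minimum, while RRM2 averaged -1.21. TK1, the thymidine salvage kinase, fell with 8 compounds, lowest at -2.24 with BF and -2.03 with BaP.

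TYMS, thymidylate synthase, was the member of this group that did not follow. It fell with NP, at -1.02, -1.03 and -1.05 (mean -1.04, adjusted p = 6.2e-15), with PH, at -0.90, -0.84 and -0.97 (mean -0.90, adjusted p = 7.04e-14), and with IND, at -0.79, -0.77 and -0.84 (mean -0.80, adjusted p = 3.06e-06). With CHR it read 1.17, 1.05 and 1.01, a mean of 1.08 (SD 0.08, adjusted p = 3.04e-15), and all 3 CHR arrays lay above 0. It averaged 0.40 with BaP and 0.03 with BF. With median centring TYMS passed as higher with BA (0.59), BaP (0.72) and BF (0.85), and its fall with IND (-0.48) did not pass.

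CHAF1A and CHAF1B, the subunits of the histone chaperone CAF-1, fell together with BA, 3MC, BaP, IND and BF. CHAF1A also fell with CHR and DBA and was lowest with BaP, at -1.71 (SD 0.12), where CHAF1B averaged -0.78. With NP they averaged 0.14 and -0.22, and with PH -0.31 and -0.23, and neither passed.

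PCNA, the sliding clamp, rose with 3 compounds and fell with 3. With CHR its arrays read 2.28, 2.48 and 2.39, a mean of 2.38 (SD 0.10, adjusted p = 1.88e-18), and its spot was saturated in Cy5 on 1 of these arrays, so this mean may lie too low. Leaving out any 1 CHR array gave 2.33 to 2.44. With BaP they read 1.38, 1.18 and 1.16 (mean 1.24, SD 0.12, adjusted p = 1.99e-14), and with DBA 0.84, 0.67 and 0.79 (mean 0.77, SD 0.09, adjusted p = 1.7e-10). The 9 arrays of these compounds all lay above 0.6.
The falls were with PH, at -1.11, -1.02 and -1.01 (mean -1.05, adjusted p = 6.65e-13), with IND, at -0.84, -0.87 and -0.87 (mean -0.86, adjusted p = 1.89e-06), and with NP, at -0.90, -0.77 and -0.84 (mean -0.83, adjusted p = 2e-11). With 3MC it read 0.42, 0.27 and 0.33 (mean 0.34, adjusted p = 2.16e-05) and with BA -0.09, -0.26 and -0.33 (mean -0.23, adjusted p = 0.00184), both under 1.5-fold. With BF it read -0.03, 0.12 and 0.09 (mean 0.06, adjusted p = 0.342).

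The spot signals of PCNA were 43928, 45891 and 49108 in CHR-exposed cells, against 9418, 7752 and 8678 in DMSO. In PH-exposed cells they were 18670, 15232 and 18826, against 38514, 29382 and 34074 in DMSO. After scaling of the channels, the DMSO level of PCNA itself spanned 12.22 (CHR) to 14.24 (PH and BA) in log2 units over the 8 compounds of the shared platform, so each ratio is to its own DMSO. Median centring in place of loess gave the same calls except with BF, where PCNA rose, at 0.90 (adjusted p = 7.74e-11), and turned the sign with BA to 0.22, still under 1.5-fold. With BF the raw signals were 23618, 26641 and 32690 in exposed cells, against 16668, 16601 and 18944 in DMSO. The authors' deposited log2 values put PCNA with BF at 0.07 and with BA at -0.16.

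Set against the median of the other members on each array, PCNA stood higher by 2.99 with CHR (SD 0.07, n = 3 arrays), 2.39 with BaP (SD 0.10), 1.17 with DBA (SD 0.12), 1.13 with BF (SD 0.09), 0.85 with 3MC (SD 0.13), 0.38 with BA (SD 0.12) and 0.26 with IND (SD 0.02). With NP and PH it stood below that median, the differences being -0.77 (SD 0.07) and -0.44 (SD 0.06). On each array of CHR, BaP, DBA and 3MC it lay above all 34 others, and on each BF array above 33 of 34. On the NP arrays 3 others lay below it, and on the PH arrays 4 to 8.

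**Figure D3:**
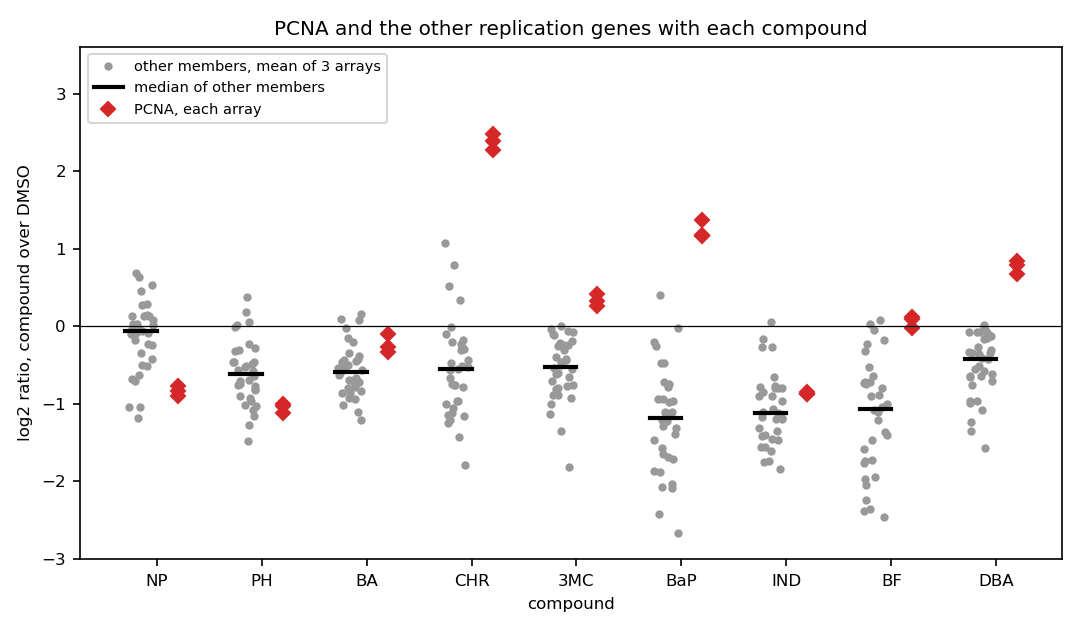
Log2 ratio of compound over DMSO for PCNA on each array (red diamonds) and for each other member as the mean of its 3 arrays (grey points), with the median of the other members as a black line, by compound. PCNA lies above every grey point with CHR, 3MC, BaP and DBA and below the line with NP and PH.

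Of the 35 members, 5 fell with some compounds and rose with others: PCNA, TYMS, GMNN, MCM7 and CDT1. PCNA, TYMS and GMNN rose with CHR, and MCM7 and CDT1 with NP. Across the means of the 8 compounds of the shared platform, the ratio of TYMS ran closest to that of PCNA among the members (Pearson r of 0.91). CDC7 was next (r = 0.88), although it stood above background in neither channel on the CHR arrays, and GMNN had r = 0.76. MCM3 ran most opposite (r of -0.66). These values are a description over 8 points whose arrays each share a DMSO channel with both genes.

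Differences between compounds were taken for 8 pairs on the shared platform as the first ratio minus the second. Whether doses were matched is not known, and values with CHR for PCNA include the array with a saturated spot. BaP lay lower than PH, which has fewer rings, for 18 members and higher for 3 (9.82% and 11.9% of all genes). CDC45 differed by -1.79 and RFC3 by -1.46, while PCNA differed by 2.29 (95% interval 2.12 to 2.45, adjusted p = 2.29e-15) and TYMS by 1.30.
BaP lay lower than CHR for 21 members and higher for 1, CDT1 (7.12% and 13.9% of all genes). RRM1 differed by -1.64 (-1.12 with BaP, 0.52 with CHR), and here PCNA was among the lower, with a difference of -1.14 (interval -1.31 to -0.98, adjusted p = 1.27e-10). BF lay lower than CHR for 19 and higher for none (17.0% and 11.3%), with 2 higher at limma's unadjusted p under 0.05. There TK1 differed by -1.57 and PCNA by -2.32 (interval -2.48 to -2.16, adjusted p = 1.06e-15).

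BaP and BF, which are isomers, split the set: 7 members were lower and 6 higher with BaP (13.5% and 21.8% of all genes). DBF4 differed by -1.65 and CDC45 by -0.98, both lower with BaP, while CDT1 was higher by 2.18 on its brighter probe, MCM5 by 1.11, and PCNA by 1.18 (interval 1.02 to 1.34, adjusted p = 1.71e-11). MCM4, MCM7 and FEN1 were the other members that were higher with BaP. CHR and BA are also isomers, and here 5 members were lower and 5 higher with CHR (9.39% and 9.28%). PCNA was higher by 2.61 (interval 2.45 to 2.77, adjusted p = 1.42e-15), followed by GMNN (1.23), RRM1 (1.15) and TYMS (0.92). CDC7 passed as well, but with CHR it stood above background in neither channel, so no size is given. The 5 lower were MCM2, MCM3, CDT1, GINS1 and POLD1, of which 1 was left without BA array 1.

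Among the compounds of dim arrays, DBA and 3MC did not differ for any member at the threshold (0.909% of all genes lower, 1.30% higher), with 3 lower and 8 higher at limma's unadjusted p under 0.05. PCNA differed by 0.43 (interval 0.27 to 0.59, adjusted p = 0.000473), under 1.5-fold, and passed with median centring, at 0.77, and with the authors' values, at 0.69. Against NP, 3MC was lower for 12 members and higher for 3 (3.13% and 5.07%), and DBA lower for 11 and higher for 3 (4.49% and 6.82%). The 3 higher were PCNA, TYMS and GMNN in both, with PCNA at 1.17 for 3MC (interval 1.01 to 1.33, adjusted p = 4.03e-10) and at 1.60 for DBA (interval 1.44 to 1.76, adjusted p = 2.67e-12). MCM2, MCM5, MCM6 and MCM7 were lower in both. With median centring the lower members fell in number to 6 for 3MC and to 1 for DBA, so the order of the set between DBA and NP rests on the scaling.

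**Figure D4:**
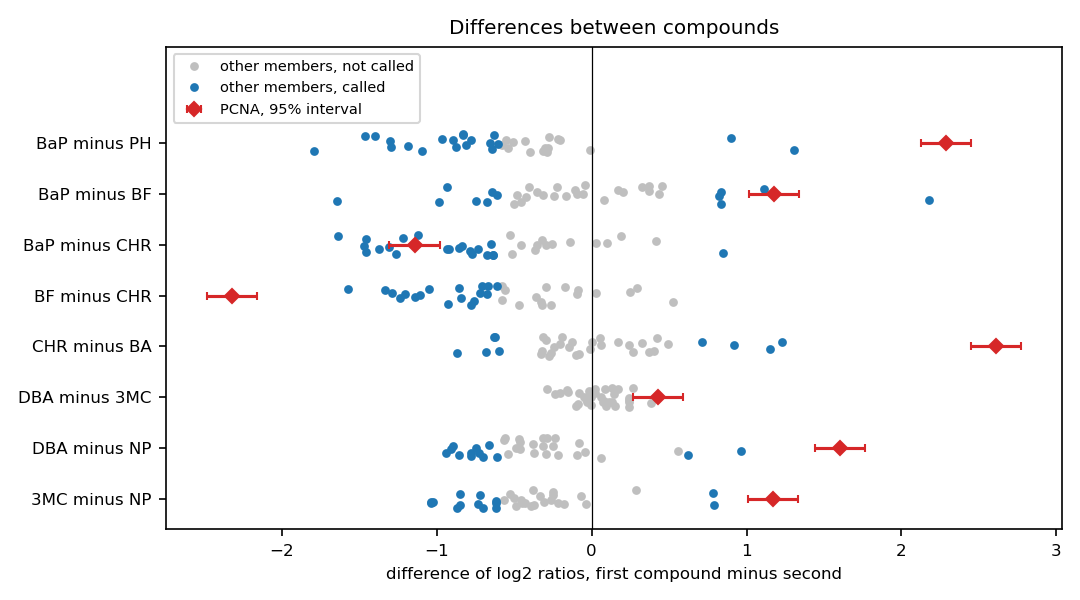
Difference of log2 ratios, first compound minus second, for each of 8 pairs of compounds (rows), with other members as points (blue where called, grey where not) and PCNA as a red diamond with its 95% interval. PCNA lies on the right for 6 pairs and on the left for BaP minus CHR and BF minus CHR.

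Other genes of the same pathways were read from lists beside the set. Of 39 further replication genes, 25 fell and 2 rose with IND, 21 and 3 with BaP, 18 and 2 with BF, 13 and 1 with PH, 10 and 2 with CHR, 9 and 1 with BA, 9 and 1 with 3MC, 8 and 0 with DBA, and 7 and 0 with NP (unadjusted limma p under 0.05 gave 4 higher with DBA and 14 with NP). As shares of this list, the falls ran from 64.1% with IND to 17.9% with NP, against 13.2% and 12.6% of all genes. Rises were at most 7.69% of the list, with BaP, against 15.1% of all genes. ASF1B, a histone chaperone, averaged -2.51 with BaP, -2.34 with BF and -1.78 with IND. CDC25A, a phosphatase that activates cyclin-dependent kinases, averaged -2.31 with BaP and -1.63 with CHR, and POLD2 of polymerase delta -2.54 with BF. POLD4, the small subunit of the same polymerase, went the other way, at 2.09 with BaP, 1.94 with BF, 1.34 with IND and 1.07 with PH. With NP the lowest were MCMBP, which binds MCM subunits, at -1.48, and DONSON, a fork protein, at -1.22, and both also fell with 3MC and DBA.

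Of 21 further nucleotide supply genes, 9 fell and 3 rose with BF, 6 and 3 with BaP, 6 and 0 with DBA (4 higher at unadjusted p under 0.05), 5 and 2 with CHR, 5 and 1 with 3MC, 5 and 3 with NP, 3 and 3 with IND, 3 and 0 with PH (5 higher at unadjusted p under 0.05), and 1 and 1 with BA. Some of these counts lay near the share of all genes. With IND 14.3% fell, against 13.2%, and 14.3% rose with BaP and with BF, against 15.1% and 16.0%. The largest share of falls was 42.9% with BF, against 20.4% of all genes. DTYMK, which makes dTDP, averaged -1.51 with BaP and -1.29 with DBA, and DUT, which clears dUTP, -1.44 with IND, -1.32 with BaP and -1.23 with CHR. RRM2B, the p53-regulated small subunit of ribonucleotide reductase, went opposite to RRM2 with 5 compounds: it rose by 2.79 with CHR (2.67, 2.85 and 2.84), 1.77 with BaP (1.73, 1.73 and 1.86), 1.55 with BF (1.53, 1.57 and 1.54), 0.62 with BA and 0.62 with 3MC. It averaged 0.33 with DBA, -0.24 with PH and -0.15 with IND, all under 1.5-fold, and fell by 0.96 with NP.

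Of 8 genes of E2F and pocket proteins, 5 fell with IND, 4 each with BaP, BF and CHR, 3 with PH, 2 with BA, 1 with NP, and 0 with 3MC and DBA, where 5 and 6 were lower at limma's unadjusted p under 0.05. The falls were 62.5% of this list with IND and 12.5% with NP, against 13.2% and 12.6% of all genes. E2F1 averaged -2.81 with BF (SD 0.09), -1.72 with CHR and -1.25 with BaP, and E2F8 -1.68 with BaP and -1.35 with PH. E2F7, a repressor of E2F targets that p53 also activates, rose by 1.72 with CHR and by 0.89 with BaP, and RB1 rose by 1.23 with CHR.

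The list of 30 further p53 targets, which holds CDKN1A and RRM2B and not PCNA, rose with the compounds with which PCNA rose and with others. With CHR 28 rose and 0 fell (1 lower at limma's unadjusted p under 0.05), with BaP 27 and 0 (2 lower), with DBA 20 and 1, with 3MC 19 and 1, with BF 17 and 3, with IND 13 and 1, with BA 8 and 0 (1 lower), with PH 6 and 8, and with NP 3 and 5. The rises were 93.3% of this list with CHR and 10% with NP, against 11.7% and 6.72% of all genes. With NP 16.7% of the list fell, against 12.6% of all genes. The BA count was 20 without array 1, and also 20 with median centring. CDKN1A was at least 20.7-fold higher with BaP and at least 5.51-fold higher with BF, its Cy5 spots being saturated on all 3 arrays of each. With CHR it averaged 4.32, a value that may lie too low since 2 of 3 arrays were saturated. It averaged 2.38 with IND, 1.68 with DBA, 1.54 with PH, 1.40 with BA, 1.06 with 3MC and 0.31 with NP (adjusted p = 0.251). TP53I3, an oxidoreductase, averaged 4.06 with both CHR and BaP.
PCNA and CDKN1A parted with PH and IND, where CDKN1A rose and PCNA fell. FAS and SESN1, other p53 targets, also fell with PH, at -0.82 and -1.02, while PLK3 rose there by 2.81.

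**Figure D5:**
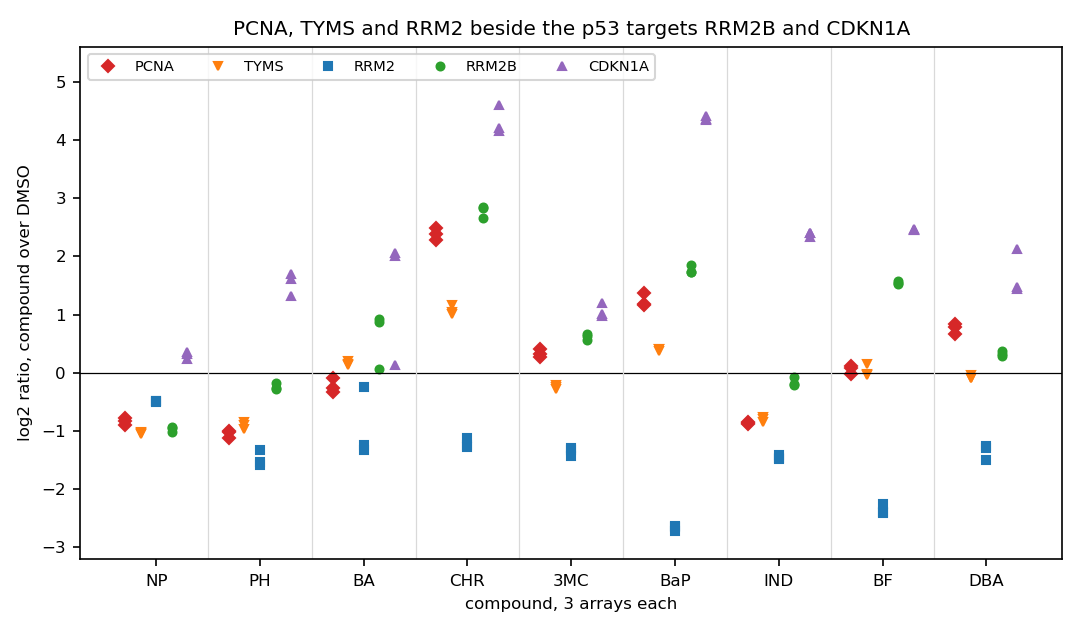
Log2 ratio of compound over DMSO on each of 3 arrays for PCNA, TYMS and RRM2 of the set and for the p53 targets RRM2B and CDKN1A, by compound. RRM2B and RRM2 lie on opposite sides of 0 with CHR, BaP and BF, and CDKN1A is saturated in Cy5 on all arrays of BaP and BF.

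Over the mean ratios of the 8 compounds of the shared platform, the genes whose pattern was most like that of PCNA were MR1 (Pearson r = 0.99), an antigen-presenting molecule, SESN1 (0.98), NANOGP1 (0.97), DQX1 (0.97) and TRO (0.97). MR1 averaged 2.87 with CHR, 2.02 with BaP, -0.14 with NP and -0.14 with PH, and SESN1 1.86 with CHR, 0.84 with BaP, -0.51 with NP and -1.02 with PH. Such values are picked as the highest among 17269 genes over 8 points and carry no test.

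The cell type was read from its markers. All 10 hepatocyte markers, among them ALB, AFP and APOA1, stood above background in both channels on each array, and their summed signal was 0.297% to 1.00% of that of all genes tested in exposed cells and 0.399% to 0.986% in DMSO. Of them 10 fell with BF, 9 with IND, 8 with BaP, 5 each with CHR, DBA and NP, 3 each with PH and 3MC, and 2 with BA, against 20.4% of all genes with BF, 13.2% with IND and 10% with BaP. Others rose, 2 each with NP, CHR and 3MC and 1 with DBA, and the median of the 10 was 0.15 with 3MC. They fell most often with BF, IND and BaP, as the replication genes did, and their part in those falls was not tested. The 12 markers of blood, endothelial, mesenchymal and squamous cells, among them PTPRC, PECAM1 and COL1A1, summed to 0.00436% to 0.0189% in exposed cells and to 0.00478% to 0.0167% in DMSO. Of these, 6 were tested with IND and all 12 with the other compounds, and 4 to 12 stood above background in a channel of an array. Between 0 (DBA) and 4 (CHR) of them rose with a compound, with 1 higher with DBA at limma's unadjusted p under 0.05, and 1 fell each with BA, CHR and BaP. The rises with CHR were 33.3% of these markers, against 11.7% of all genes. Each single fall was 8.33%, against 3.10% (BA), 12.3% (CHR) and 10% (BaP) of all genes.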

How the data were processed

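Per the file headers, the deposited scanner files give raw intensity for every spot and its surroundings in both dyes, not yet normalised, with the percent of saturated pixels. A table of log2 ratios was deposited by the authors as well, normalised in a way not given in the sources used here; 20 of 27 columns could be tied to spots and served as an alternative, and 7 were left out. Ratios were computed with R 4.3.3 and limma 3.58.1 (tables: pandas 2.3.3 and numpy 2.4.6 under Python 3.11.15; figures: matplotlib 3.10.9): normexp background correction at an offset of 50, loess within arrays, spots flagged -75 or lower removed, spots of a probe averaged. Probes were kept that exceeded background by over 2 of its SDs in either channel on 2 or more arrays of a compound, and the brightest probe stood for its gene. A spot with at least 10% saturated pixels counted as saturated. Each compound's mean was tested against 0 in a model of all 24 arrays of the shared platform, and IND in its own, 2-sided, adjusted by Benjamini and Hochberg. The model was tested on simulated ratios. The number of arrays limits the precision.

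Values per array are given for PCNA, for the 2 lowest members called with each compound, for members that rose and for those called in both directions; of other lists up to 3 called genes per compound, with CDKN1A, RRM2B and CYP1A1; and the 5 genes most like PCNA. Members and lists were chosen with earlier results of these data known. Alternatives were other background corrections, scalings, filters and probe summaries, the authors' values, array weights, the array number as a replicate block, other fold minimums, separate fits and leaving out each array; fits apart by scanner layout and on members above background in both channels were added after seeing the data.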

Additional observations from a re-analysis of the deposited data

Results flagged for a closer look

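These results are listed because limma's test of the difference between 2 compounds passed; no test for an outlying array was run in groups of 3. The members that differed numbered 21 for BaP minus PH, 13 for BaP minus BF, 22 for BaP minus CHR, 19 for BF minus CHR, 10 for CHR minus BA, 14 for DBA minus NP and 15 for 3MC minus NP. PCNA itself differed by 2.29 for BaP minus PH, 1.18 for BaP minus BF, -1.14 for BaP minus CHR, -2.32 for BF minus CHR, 2.61 for CHR minus BA, 1.60 for DBA minus NP and 1.17 for 3MC minus NP. Each pair differs also in its DMSO RNA and arrays, whose part was not tested.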

How the results depend on the processing

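No call changed direction under any alternative run, and signal over background limits CCNE2 (3MC and DBA), GINS1 (BF and DBA), CDC7 (CHR) and CCNE1 (CHR), which stood above background on no array of 1 or both channels there. Median centring in place of loess moved the members that rose to 0 with NP, 1 with BA, 2 with BaP and 2 with BF, put PCNA with BF at 0.90 and PCNA in DBA minus 3MC at 0.77, and gave 12 lower and 1 higher for BF minus CHR, 2 higher for DBA minus 3MC, 1 lower and 5 higher for DBA minus NP, and 6 lower for 3MC minus NP. It also moved the rises over 8 compounds to 19 among other replication genes (10 before), 21 among other nucleotide genes (13 before) and 7 among E2F and pocket genes (3 before), and the share of higher among all calls to 17.0% with NP, 72.8% with BaP, 56.9% with BF and 71.2% with DBA, against 34.8%, 60.1%, 44.1% and 29.8% with loess. Plain background subtraction gave 4 rises with NP, 1 higher for BF minus CHR and 22 lower for DBA minus NP. The mean of a gene's probes gave 1 rise with NP and 3 lower for CHR minus BA, and array weights gave 2 lower there. The authors' values gave 18 rises among other replication genes, 1 higher for BF minus CHR, 1 lower and 1 higher for DBA minus 3MC, with PCNA at 0.69, and 19 lower for DBA minus NP. Fitted on its own, BA gave 0 falls, with 26 lower at limma's unadjusted p under 0.05.

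With no fold minimum the falls were 14 (NP), 30 (PH), 31 (BA), 28 (CHR), 27 (3MC) and 24 (DBA), the rises 6 (NP), 2 (PH), 1 (BA), 5 (CHR), 1 (3MC) and 2 (BaP), and PCNA with BA (-0.23), with 3MC (0.34) and in DBA minus 3MC (0.43) passed. Between compounds that gave 28 lower for BaP minus PH, 14 lower and 11 higher for BaP minus BF, 2 higher for BaP minus CHR, 2 higher for BF minus CHR, 10 lower and 11 higher for CHR minus BA, 6 higher for DBA minus 3MC, and 25 lower for DBA minus NP and for 3MC minus NP. The lists had 201 falls and 45 rises (other replication), 80 and 47 (other nucleotide), 37 falls (p53 targets), and 42 and 11 (E2F and pocket). With a 2-fold minimum the falls were 3 (NP), 7 (PH), 3 (BA), 9 (CHR), 4 (3MC), 19 (IND) and 4 (DBA), with 0 rises with NP and DBA, and PCNA with NP (-0.83), IND (-0.86) and DBA (0.77) did not pass. The pairs then gave 7 lower for BaP minus PH, 1 lower and 3 higher for BaP minus BF, 10 lower and 0 higher for BaP minus CHR, 9 lower for BF minus CHR, 0 lower and 3 higher for CHR minus BA, 0 lower and 1 higher for DBA minus NP, and 3 lower and 1 higher for 3MC minus NP, and the lists 29 falls and 5 rises (other replication), 16 and 4 (other nucleotide), 2 falls (p53 targets) and 9 falls (E2F and pocket).

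Leaving out each array in turn gave 1 to 5 lower for CHR minus BA, lowest without BA array 1, and 0 to 1 higher for BF minus CHR; BA falls ran from 14 to 23 and 3MC falls from 12 to 15. The labels tie no array number to a shared culture or day, and residuals of same-numbered arrays correlated at 0.00309 on average, so the numbers were not taken as pairs; with the number as a replicate block 28 members fell with BaP, as without it, and 272 of 272 results of single members stayed on their side of the threshold. No cause of these changes was tested, beyond fewer samples, other minimums and other scalings by construction.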
